A study of Mus musculus with 2 samples.

Results

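The genes described here are the 31 glycolysis and hypoxia response genes of a mouse liver single-cell data set, chosen by their symbols among 27998 listed genes. Of these, 18 belong to glycolysis (glucose transporters, enzymes from hexokinase to enolase, and the regulators Pfkfb3 and Pfkfb4) and 13 to the response to low oxygen. Each symbol matched 1 listed gene. The cells were the non-parenchymal fraction of liver, which holds immune, vascular and stromal cells rather than hepatocytes, and were isolated by perfusion and density gradient and profiled on a droplet platform that reads the 3′ ends of transcripts. One library, n = 1, came from PKM2ΔMAC mice, named for loss of the pyruvate kinase isoform PKM2 in macrophages, and the other, n = 1, came from PKM2FL/FL mice, which carry the floxed allele. All mice had been on a methionine- and choline-deficient (MCD) diet for 8 weeks, which produces fatty, inflamed liver, so the diet is shared by both groups and no other diet was analysed here. The labels state neither the age of the mice nor the Cre driver nor how many mice were behind each library.

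Glycolysis splits glucose into pyruvate. Transporters bring glucose in, hexokinases trap it as a phosphate, phosphofructokinase commits it to the pathway, and aldolase, triosephosphate isomerase, glyceraldehyde phosphate dehydrogenase, phosphoglycerate kinase, phosphoglycerate mutase and enolase carry it to the substrate of pyruvate kinase. When oxygen is short, the prolyl hydroxylases that mark HIF-1α for destruction slow down, and HIF-1 raises transcription of many of these same genes together with factors for vessel growth, mitochondrial removal and collagen processing. In immune cells the same programme is also switched on by activation without any lack of oxygen. Neutrophils are known to depend on glycolysis, and the liver lobule is known to carry an oxygen gradient.

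The PKM2ΔMAC library held 8949 barcodes with 43134027 UMIs (unique molecular identifiers, 1 per captured transcript), and the PKM2FL/FL library held 10054 barcodes with 54519921 UMIs. After filters, 8547 PKM2ΔMAC and 9529 PKM2FL/FL cells remained, and 17 barcode sequences occurred in both libraries. Levels are UMIs of a gene per 1000000 UMIs of its class (CPM), and RNA free in the droplets was not subtracted. Cells were assigned to 21 classes by marker genes, none of which is a member, and 15 of these, each holding 50 cells or more in both libraries, were compared. Class names rest on transcripts alone, so that neutrophil stands for neutrophil-like cell and so on. Every class compared had UMIs of all markers of its own panel in both libraries, for example 20354 CPM in PKM2ΔMAC and 21692 CPM in PKM2FL/FL Kupffer cells over the 9 Kupffer cell markers. Cells were assigned by these same markers, so such levels do not check the class names. Kupffer cells, the resident liver macrophages, were shallow, with medians of 1058 UMIs per PKM2ΔMAC cell and 1065 UMIs per PKM2FL/FL cell, and endothelial cells differed in depth, with medians of 828.5 UMIs in the PKM2ΔMAC library and 1718 UMIs in the PKM2FL/FL library. With 1 library per genotype there was no replicate and no test. Intervals are 95% intervals, cover counting error only, and say nothing of differences between animals. Fewer cells of a kind within a class and less RNA per cell cannot be told apart in these sums.

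Promoter sequences of the members were searched for a short motif. HIF-1 is known to raise many of these genes, so its motif is not independent of how the members were chosen. HIF-1 binds the core letters ACGTG or GCGTG, searched here on both strands in the 250 bases before each annotated start (RefSeq, GRCm38.p6). Windows of 27 of the 31 members were matched, all but those of Slc2a3, Bnip3l, Ndrg1 and Ero1l. At least 1 such site lay in a window of 24 of the 27 members (88.9%), against 41.5% of the 27025 genes of the same table. At least 2 sites lay in a window of 63.0% of the members and of 15.3% of all genes. Both motifs hold a CG, the base composition of the windows was not matched, and ACGTG is also part of the longer E-box CACGTG. For Gpi1, Tpi1 and Mif these letters were not in the windows searched, which says nothing about the factor.

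The windows of 5 members that differ between libraries below are printed as examples, and all 5 hold a motif. Mif, Gpi1 and Tpi1, whose windows hold none, also differ below and are not printed. Whether the sites go with the differences was not tested. Letters run 5′ to 3′ on the gene's strand, and capitals mark either motif as read on either strand. They lie at chr4:119108495-119108744 on the plus strand for Slc2a1 and, on the minus strand, at chr6:82774455-82774704 for Hk2, chr8:45999851-46000100 for Ankrd37, chr12:54203875-54204124 for Egln3 and chr9:121857797-121858046 for Higd1a, all GRCm38.p6.
Slc2a1: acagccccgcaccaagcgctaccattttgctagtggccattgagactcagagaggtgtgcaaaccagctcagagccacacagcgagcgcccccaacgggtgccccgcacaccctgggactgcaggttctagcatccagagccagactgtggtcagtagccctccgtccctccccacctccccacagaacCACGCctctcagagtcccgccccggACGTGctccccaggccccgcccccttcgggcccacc
Hk2: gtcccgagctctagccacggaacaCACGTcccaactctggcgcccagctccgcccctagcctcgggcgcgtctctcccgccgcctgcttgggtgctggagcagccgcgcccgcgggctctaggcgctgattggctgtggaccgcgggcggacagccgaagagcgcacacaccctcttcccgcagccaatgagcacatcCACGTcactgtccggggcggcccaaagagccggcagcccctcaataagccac
Ankrd37: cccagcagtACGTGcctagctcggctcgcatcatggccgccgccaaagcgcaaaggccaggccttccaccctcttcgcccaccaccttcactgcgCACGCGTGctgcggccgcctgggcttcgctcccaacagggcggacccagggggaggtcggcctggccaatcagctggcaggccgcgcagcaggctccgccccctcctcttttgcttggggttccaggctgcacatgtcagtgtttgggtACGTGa
Egln3: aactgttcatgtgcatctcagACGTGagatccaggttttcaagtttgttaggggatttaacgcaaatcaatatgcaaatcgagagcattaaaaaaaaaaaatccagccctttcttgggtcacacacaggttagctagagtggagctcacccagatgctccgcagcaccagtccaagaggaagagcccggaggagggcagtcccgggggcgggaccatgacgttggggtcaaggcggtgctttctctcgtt
Higd1a: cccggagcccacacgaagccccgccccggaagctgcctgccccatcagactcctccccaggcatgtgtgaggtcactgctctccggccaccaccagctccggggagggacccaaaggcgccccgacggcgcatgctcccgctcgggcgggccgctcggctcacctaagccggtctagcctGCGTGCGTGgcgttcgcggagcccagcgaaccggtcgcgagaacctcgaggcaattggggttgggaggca
Ankrd37 holds 3 separate runs of capitals, with the nearest 2 bases before its start. Slc2a1 and Hk2 hold 2 each. The single run of Egln3 lies far upstream, 225 bases before its start, and that of Higd1a is a pair of overlapping GCGTG letters 62 bases before its start.

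**Figure D1:**
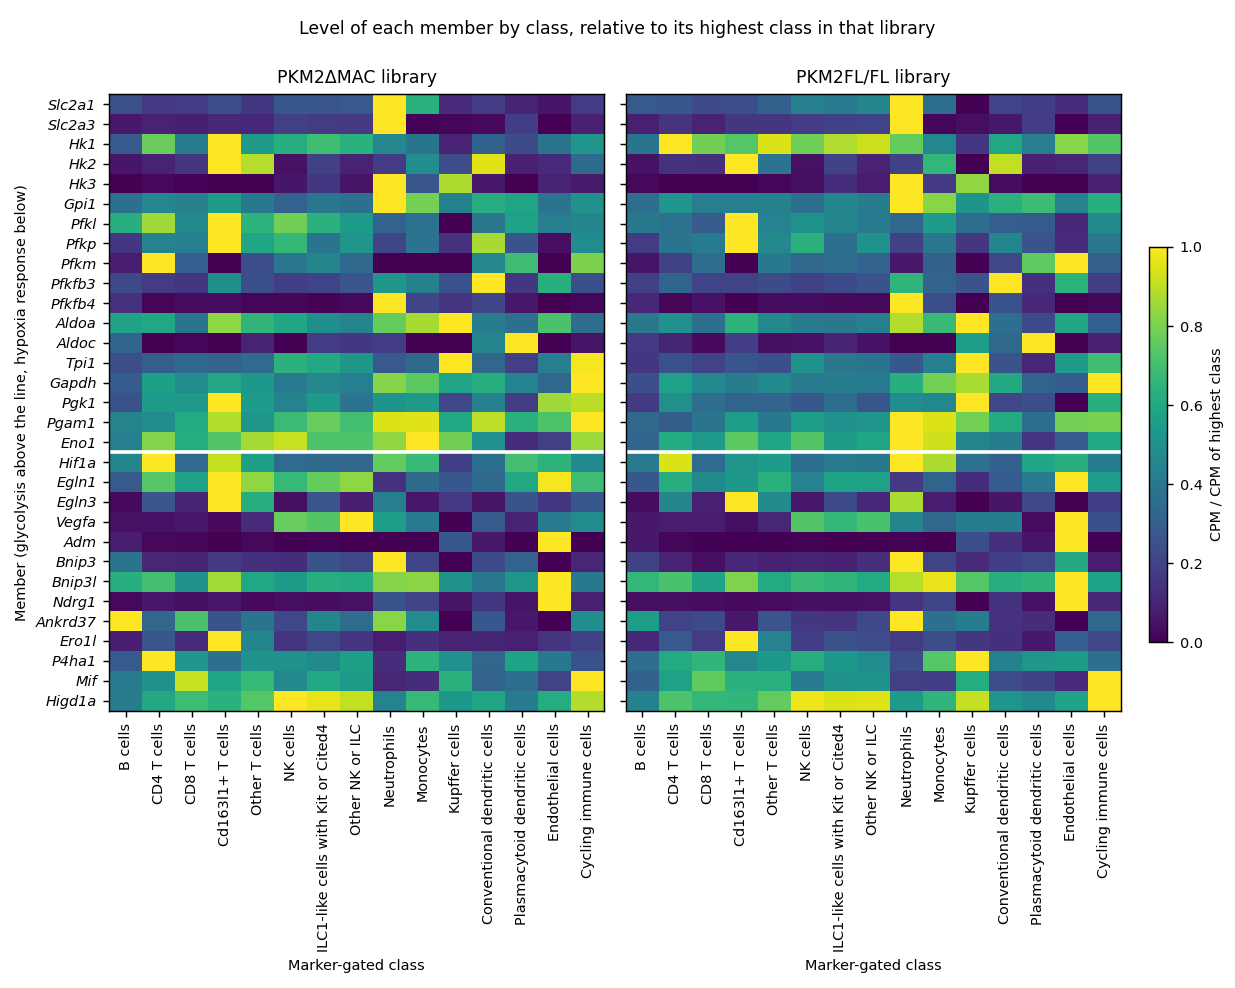
Level of each of the 31 members (rows) in each of the 15 compared classes (columns), as CPM divided by the CPM of that member's highest class, in the PKM2ΔMAC library on the left and the PKM2FL/FL library on the right. The 18 glycolysis members lie above the white line and the 13 hypoxia response members below it, and 20 of the 31 members have the same highest class in both libraries.

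The members were not spread evenly over the liver cells, and the map of levels by class looked alike in both libraries, with the same highest class for 20 of 31 members. Neutrophils were the highest of the compared classes for both glucose transporters, for the hexokinase Hk3, for the isomerase Gpi1 and for Pfkfb4. Cd163l1+ T cells, which carry a scavenger receptor found on interleukin-17-producing γδ T cells of mice, were highest for Hk2, Pfkp, Pfkl, Ero1l and Egln3. Endothelial cells were highest for Ndrg1, Adm and Bnip3l. Kupffer cells were highest for Aldoa and Tpi1, cycling immune cells for Gapdh and Mif, conventional dendritic cells for Pfkfb3, and plasmacytoid dendritic cells for Aldoc. These orders are descriptions, and members with few UMIs have wide intervals.

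Among the transporters, Slc2a3, a high-affinity glucose transporter, had 331 CPM in PKM2ΔMAC neutrophils and 369 CPM in PKM2FL/FL neutrophils, from 498 PKM2ΔMAC and 547 PKM2FL/FL UMIs. The next class stood at 62.9 CPM in the PKM2ΔMAC library (NK cells) and 74.7 CPM in the PKM2FL/FL library (other NK or innate lymphoid cells), and monocytes, the other blood-borne phagocytes, had only 3.67 CPM (3 UMIs) in PKM2ΔMAC and 4.83 CPM (8 UMIs) in PKM2FL/FL cells. Both libraries therefore show Slc2a3 far higher in neutrophils than in monocytes. Slc2a1, the ubiquitous transporter, had 106 CPM in PKM2ΔMAC and 115 CPM in PKM2FL/FL neutrophils, against class medians of 18.7 CPM in PKM2ΔMAC cells and 31.2 CPM in PKM2FL/FL cells. As a share of the UMIs of both transporters, Slc2a3 gave 75.8% (72.3 to 79, exact Clopper-Pearson) in PKM2ΔMAC and 76.2% (72.9 to 79.3) in PKM2FL/FL neutrophils, but 5.17% (1.08 to 14.4) in PKM2ΔMAC and 10.4% (4.59 to 19.4) in PKM2FL/FL monocytes. A 3′ tag counts captured molecules whatever their length, so these are shares of molecules and not of reads.

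The hexokinases divided by class in the same way. Hk3, a form typical of myeloid cells, gave 57.0% (49.2 to 64.5) of hexokinase UMIs in PKM2ΔMAC neutrophils and 57.9% (50.5 to 65.0) in PKM2FL/FL neutrophils. Kupffer cells had Hk3 at 57.2 CPM in PKM2ΔMAC and 61.8 CPM in PKM2FL/FL cells, from only 9 PKM2ΔMAC and 8 PKM2FL/FL UMIs, and the few basophils or mast cells (17 PKM2ΔMAC and 27 PKM2FL/FL cells) had 102 CPM in PKM2ΔMAC and 130 CPM in PKM2FL/FL cells. Hk2, the inducible form, led in conventional dendritic cells, with 80.5% (74.1 to 86.0) in PKM2ΔMAC and 72.5% (66.0 to 78.3) in PKM2FL/FL cells, in Cd163l1+ T cells, with 61.8% (49.98 to 72.8) in PKM2ΔMAC and 72.0% (57.5 to 83.8) in PKM2FL/FL cells, and in monocytes, with 55.1% (43.4 to 66.4) in PKM2ΔMAC and 63.1% (55.0 to 70.6) in PKM2FL/FL cells. Hk1, the housekeeping form, gave 82.8% (71.3 to 91.1) in PKM2ΔMAC and 84.8% (73.9 to 92.5) in PKM2FL/FL NK cells with S1pr5 or Cma1, which mark circulating NK cells, and 74.2% (66.8 to 80.8) in PKM2ΔMAC and 75.4% (68.3 to 81.7) in PKM2FL/FL B cells. The 3 isozymes thus split the classes named here into an Hk3 group, an Hk2 group and an Hk1 group, the same in both libraries. This did not hold in T cells outside the CD4, CD8 and Cd163l1+ gates, where Hk2 led in PKM2ΔMAC and Hk1 in PKM2FL/FL cells.

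**Figure D2:**
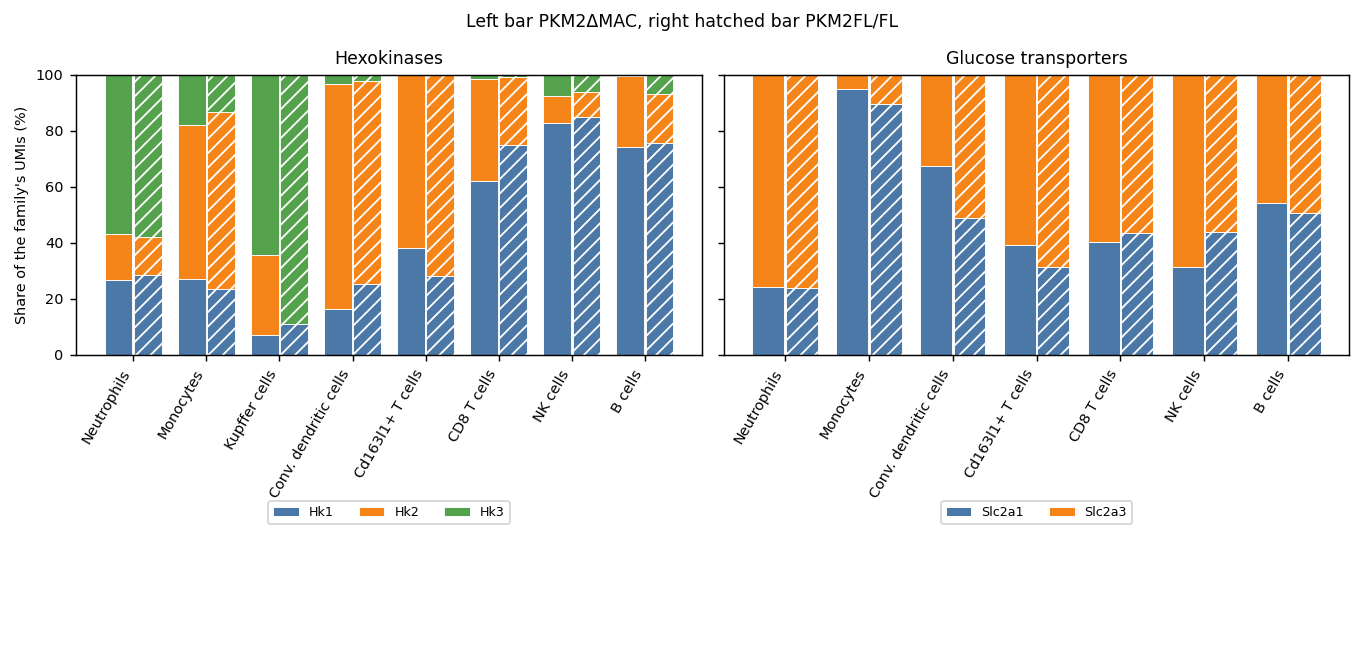
Shares (%) of hexokinase UMIs from Hk1, Hk2 and Hk3 (left panel) and of glucose transporter UMIs from Slc2a1 and Slc2a3 (right panel) by class, with the PKM2ΔMAC library as the left bar and the PKM2FL/FL library as the hatched right bar. Hk3 gives 57.0% in PKM2ΔMAC and 57.9% in PKM2FL/FL neutrophils, and Slc2a3 gives 5.17% in PKM2ΔMAC and 10.4% in PKM2FL/FL monocytes. Kupffer cells are left out of the right panel because they held 3 PKM2ΔMAC and 2 PKM2FL/FL transporter UMIs.

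At the commitment step, Pfkp was the main phosphofructokinase transcript in most classes, with 83.3% (80.3 to 86.0) of the family in PKM2ΔMAC and 83.4% (80.0 to 86.4) in PKM2FL/FL CD8 T cells and a highest level of 180 CPM in PKM2ΔMAC and 193 CPM in PKM2FL/FL Cd163l1+ T cells. Pfkl, the liver form, reached 29.6 CPM in PKM2ΔMAC and 42.6 CPM in PKM2FL/FL cells there, from 13 PKM2ΔMAC and 17 PKM2FL/FL UMIs. Pfkm, the muscle form, held 77 PKM2ΔMAC and 137 PKM2FL/FL UMIs over all classes and never reached the minimum of 50 UMIs in any class. Pfkfb3 and Pfkfb4 make the sugar bisphosphate that stimulates phosphofructokinase, and they parted by class. Pfkfb4 gave 75.5% (68.1 to 81.9) of their UMIs in PKM2ΔMAC and 71.6% (65.0 to 77.7) in PKM2FL/FL neutrophils, where it had 81.7 CPM in PKM2ΔMAC and 100 CPM in PKM2FL/FL cells. Pfkfb3 gave 87.8% (78.2 to 94.3) in PKM2ΔMAC and 88.5% (81.7 to 93.4) in PKM2FL/FL cells of the remaining NK or innate lymphoid class, and its highest level was 50.2 CPM in PKM2ΔMAC and 60.7 CPM in PKM2FL/FL conventional dendritic cells. Gpi1, which turns glucose phosphate into fructose phosphate, was at least 136 CPM in PKM2ΔMAC and 183 CPM in PKM2FL/FL classes and highest in neutrophils, at 433 CPM in PKM2ΔMAC and 509 CPM in PKM2FL/FL cells.

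Most enzymes further down were found in every compared class. Aldoa, the main aldolase here, had 381 CPM in PKM2ΔMAC Kupffer cells and 588 CPM in PKM2FL/FL Kupffer cells, against class medians of 224 CPM in PKM2ΔMAC and 254 CPM in PKM2FL/FL cells. Aldoc, known best from brain, held 57 PKM2ΔMAC and 81 PKM2FL/FL UMIs in all, and its highest level was 7.62 CPM in PKM2ΔMAC and 13.9 CPM in PKM2FL/FL plasmacytoid dendritic cells. Tpi1 was likewise highest in Kupffer cells, at 178 CPM in PKM2ΔMAC and 271 CPM in PKM2FL/FL cells. Gapdh was highest in cycling cells, at 1342 CPM in PKM2ΔMAC and 1727 CPM in PKM2FL/FL cells, and lowest in B cells, at 391 CPM in PKM2ΔMAC and 425 CPM in PKM2FL/FL cells. Pgk1, the phosphoglycerate kinase, stayed at or under 29.6 CPM in PKM2ΔMAC and 38.7 CPM in PKM2FL/FL classes. Pgam1 and Eno1 had different highest classes in the 2 libraries, with Eno1 at 267 CPM in PKM2ΔMAC monocytes and 375 CPM in PKM2FL/FL neutrophils. Gapdh, Eno1, Pgk1, Aldoa, Pgam1, Tpi1 and Mif have near-identical copies or pseudogenes in the mouse genome, and the labels do not say how reads shared with such copies were counted.

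The hypoxia response members also differed between classes. Hif1a, the oxygen-regulated subunit itself, was highest in CD4 T cells of the PKM2ΔMAC library (137 CPM) and in neutrophils of the PKM2FL/FL library (164 CPM). Of the hydroxylases that inactivate it, Egln1 was the main transcript in most classes, with 95.6% (90.7 to 98.4) in PKM2ΔMAC and 97.0% (93.9 to 98.8) in PKM2FL/FL B cells, while Egln3, a strongly HIF-dependent family member, made up 62.5% (45.8 to 77.3) in PKM2ΔMAC and 57.4% (44.8 to 69.3) in PKM2FL/FL neutrophils. Egln3 was highest among compared classes in Cd163l1+ T cells, at 38.7 CPM in PKM2ΔMAC and 30.04 CPM in PKM2FL/FL cells, and the uncompared basophils or mast cells had 68.2 CPM in PKM2ΔMAC and 116 CPM in PKM2FL/FL. The same class had Ndrg1, a stress-response gene known for its part in mast cell maturation, at 398 CPM in PKM2ΔMAC and 362 CPM in PKM2FL/FL cells, and Ero1l at 250 CPM in PKM2ΔMAC and 203 CPM in PKM2FL/FL cells. Ero1l is an oxidase that forms disulfide bonds in the endoplasmic reticulum.

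Among the secreted factors, Adm, which encodes the vessel-dilating peptide adrenomedullin, was highest in vascular and stromal cells. It had 69.7 CPM in PKM2ΔMAC and 63.8 CPM in PKM2FL/FL endothelial cells (11 PKM2ΔMAC and 13 PKM2FL/FL UMIs) and 142 CPM in PKM2ΔMAC and 175 CPM in PKM2FL/FL smooth muscle or fibroblast cells (31 PKM2ΔMAC and 10 PKM2FL/FL UMIs), against class medians of 0.682 CPM in PKM2ΔMAC and 0.663 CPM in PKM2FL/FL cells. Vegfa, the vessel growth factor, was carried by the NK and innate lymphoid classes, at 67.5 to 92.2 CPM in PKM2ΔMAC and 85.0 to 93.5 CPM in PKM2FL/FL cells, by PKM2FL/FL endothelial cells at 128 CPM, and by lipid-associated macrophages gated on Gpnmb or Trem2, at 108 CPM in PKM2ΔMAC and 155 CPM in PKM2FL/FL cells from 39 PKM2ΔMAC and 78 PKM2FL/FL cells. Mif, an inflammatory cytokine with enzyme activity, was highest in cycling cells, at 434 CPM in PKM2ΔMAC and 400 CPM in PKM2FL/FL cells, and low in neutrophils, at 45.9 CPM in PKM2ΔMAC and 76.1 CPM in PKM2FL/FL cells.

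Of the mitochondrial members, Bnip3, a mitophagy receptor, was highest in neutrophils, at 41.2 CPM in PKM2ΔMAC and 64.7 CPM in PKM2FL/FL cells, but its relative Bnip3l outnumbered it in every compared class, from 85.0% to 100% of the pair in PKM2ΔMAC cells and from 75.2% to 98.0% in PKM2FL/FL cells. Bnip3l peaked at 285 CPM in PKM2ΔMAC and 221 CPM in PKM2FL/FL endothelial cells. Higd1a, a small protein of the respiratory chain, varied little, with highest-class levels 1.57 times the class median in PKM2ΔMAC and 1.51 times in PKM2FL/FL cells. P4ha1, a collagen prolyl hydroxylase subunit, was highest in CD4 T cells of the PKM2ΔMAC library (62.6 CPM) and in Kupffer cells of the PKM2FL/FL library (54.1 CPM, 7 UMIs). Ankrd37, an ankyrin repeat gene used as a HIF target, stayed at or under 17.8 CPM in PKM2ΔMAC classes and reached 36.4 CPM in PKM2FL/FL neutrophils.

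Members also had a lowest class, with endothelial and Kupffer cells shallow enough that a count of 0 there still allows up to 19.1 CPM in the PKM2ΔMAC library and 23.2 CPM in the PKM2FL/FL library. Slc2a3 had 0 UMIs in endothelial cells of both libraries, and Slc2a1 was lowest in PKM2ΔMAC endothelial cells (6.33 CPM) and PKM2FL/FL Kupffer cells (0 UMIs). Hk1 was lowest in Kupffer cells at 6.35 CPM in PKM2ΔMAC and 7.73 CPM in PKM2FL/FL cells, Hk2 in PKM2ΔMAC NK cells with S1pr5 or Cma1 (4.66 CPM) and PKM2FL/FL Kupffer cells (0 UMIs), and Hk3 in PKM2ΔMAC Cd163l1+ T cells and PKM2FL/FL CD4 T cells (0 UMIs). Pfkp was lowest in endothelial cells, at 6.33 CPM in PKM2ΔMAC and 24.5 CPM in PKM2FL/FL cells. Tpi1 and Eno1 were lowest in plasmacytoid dendritic cells, at 33.4 CPM in PKM2ΔMAC and 29.6 CPM in PKM2FL/FL cells for Tpi1 and at 34.0 CPM in PKM2ΔMAC and 56.4 CPM in PKM2FL/FL cells for Eno1, and Aldoa was lowest in PKM2ΔMAC cycling cells (137 CPM) and PKM2FL/FL plasmacytoid dendritic cells (132 CPM). P4ha1 was lowest in neutrophils, at 7.97 CPM in PKM2ΔMAC and 12.8 CPM in PKM2FL/FL cells, and Egln1 in PKM2ΔMAC neutrophils (9.97 CPM) and PKM2FL/FL Kupffer cells (15.5 CPM). Ero1l was lowest in PKM2ΔMAC neutrophils (15.9 CPM) and PKM2FL/FL plasmacytoid dendritic cells (10.2 CPM), Hif1a in PKM2ΔMAC Kupffer cells (25.4 CPM) and PKM2FL/FL conventional dendritic cells (50.3 CPM), and Higd1a in PKM2ΔMAC plasmacytoid dendritic cells (59.2 CPM) and PKM2FL/FL B cells (48.6 CPM). Pfkfb3 was lowest in PKM2ΔMAC CD8 T cells (7.78 CPM) and PKM2FL/FL plasmacytoid dendritic cells (8.32 CPM), and Pgam1 in PKM2ΔMAC B cells (66.9 CPM) and PKM2FL/FL CD4 T cells (60.4 CPM). Bnip3l kept at least 113 CPM in PKM2ΔMAC and 127 CPM in PKM2FL/FL classes. Pfkl, Pfkm, Pfkfb4, Aldoc, Vegfa, Adm, Bnip3, Ankrd37, Egln3, Ndrg1 and Pgk1 each had a compared class with 0 UMIs in at least 1 library.

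The comparison of genotypes asked how these genes stood in each class of the PKM2ΔMAC liver. Summed over its 18 members, the glycolysis list was lower in PKM2ΔMAC than in PKM2FL/FL cells in 15 of 15 classes, at ratios of 0.633 to 0.988, and the counting interval lay below 1 in 13 of them. Gapdh made up 30.2% to 56.4% of these sums, and without it the ratios were 0.704 to 0.959, again below 1 in 15 of 15 classes. The sum of the 13 hypoxia response members was higher in PKM2ΔMAC cells in 11 of 15 classes and lower in neutrophils, monocytes, Kupffer cells and endothelial cells. Its counting interval lay above 1 in 7 classes and below 1 in 1 class, neutrophils. The count of 11 rests on Mif and Bnip3l, since without them 7 classes were higher and 8 lower. The median over all genes, by class, was -0.30 to 0.04 on the log2 scale, lowest in neutrophils and highest in endothelial cells. All classes of a genotype share 1 library, so their agreement in direction does not count as repeats.

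**Figure D3:**
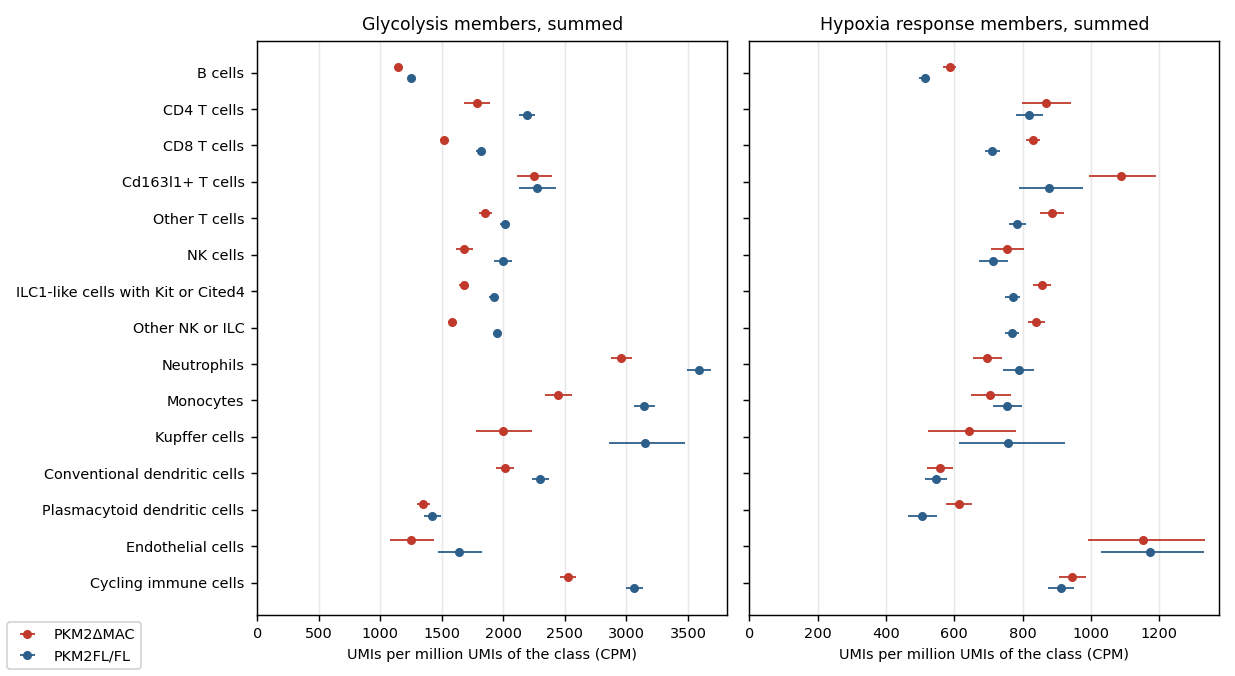
Summed level (CPM, horizontal axis) of the 18 glycolysis members (left) and the 13 hypoxia response members (right) in each compared class, PKM2ΔMAC in red above PKM2FL/FL in blue, with bars for 95% counting intervals. The red point lies left of the blue point in 15 of 15 classes in the left panel and right of it in 11 of 15 in the right panel.

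Single members are described next from 50 UMIs over both libraries, and in counts of members, higher and lower mean levels at least 1.5-fold apart, by size alone. In counts of classes the words give only the side of equal. Neutrophils here are the 593 PKM2ΔMAC and 650 PKM2FL/FL cells with Irg1 or Slc7a11. In these, 9 of 25 members were lower in PKM2ΔMAC cells, where 25.8% of all 4301 genes with this minimum were, and 1 was higher, where 2.67% of all genes were. The median of all genes was itself -0.30 on the log2 scale, so many genes had a lower share of the class total. The 9 neutrophil markers had a higher share, at 31600 CPM in PKM2ΔMAC and 26969 CPM in PKM2FL/FL neutrophils. Median depth was 2396 UMIs per PKM2ΔMAC and 2176 UMIs per PKM2FL/FL neutrophil. The part of either in the shift was not tested. The glycolysis median was -0.25 over 15 members and the hypoxia response median was -0.65 over 10, though 0.20 with cells thinned to 1000 UMIs, where 7 members kept enough UMIs.

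Ankrd37 was farthest apart in neutrophils, with 14.6 CPM in PKM2ΔMAC and 36.4 CPM in PKM2FL/FL cells, from 22 PKM2ΔMAC and 54 PKM2FL/FL UMIs (log2 ratio -1.32, ratio 0.402, 0.233 to 0.671). Aldoa had 292 CPM in PKM2ΔMAC and 519 CPM in PKM2FL/FL cells (log2 ratio -0.83, ratio 0.562, 0.498 to 0.632), and Eno1, the enolase, had 223 CPM in PKM2ΔMAC and 375 CPM in PKM2FL/FL cells (log2 ratio -0.75, ratio 0.594, 0.517 to 0.682). Hif1a stood at 104 CPM in PKM2ΔMAC and 164 CPM in PKM2FL/FL cells (log2 ratio -0.65, ratio 0.637, 0.518 to 0.782). The regulator and both of these enzymes thus had lower ratios than the median gene in neutrophils. Mif (-0.73), Ero1l (-0.72), Egln3 (-0.66), Bnip3 (-0.65) and Tpi1 (-0.59, but 0.12 with cells thinned to 1000 UMIs) were the other lower members on the log2 scale, the intervals of Ero1l (ratio 0.349 to 1.04) and Egln3 (0.367 to 1.07) including equal levels. Ndrg1 went the other way, with 92.4 CPM in PKM2ΔMAC and 47.8 CPM in PKM2FL/FL neutrophils, from 139 PKM2ΔMAC and 71 PKM2FL/FL UMIs (log2 ratio 0.95, ratio 1.93, 1.44 to 2.61).

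Set against the shift of all genes, the neutrophil differences shrank. Taken relative to the median gene, 0 glycolysis members remained 1.5-fold apart, and 1 hypoxia response member was lower and 1 higher. The highly expressed Gapdh (1097 CPM in PKM2ΔMAC and 1086 CPM in PKM2FL/FL cells), Slc2a3 (log2 ratio -0.16), Slc2a1 (-0.12) and Gpi1 (-0.23) lay above that median. Pkm, the gene of pyruvate kinase and no member, had 346 CPM in PKM2ΔMAC and 769 CPM in PKM2FL/FL neutrophils, and its 3′ tags do not separate PKM2 from PKM1 or check the deletion. Among 20 further hypoxia genes, 8 had enough UMIs in neutrophils, and 6 of these were lower in the PKM2ΔMAC library, where 25.8% of all genes were, and 0 higher (median -0.77). Relative to the median gene 1 of the 8 was lower. Among the 6 was Bhlhe40, a HIF-induced repressor, at 46.5 CPM in PKM2ΔMAC and 88.3 CPM in PKM2FL/FL cells. Ldha, which makes lactate, was not among the lower genes, with 435 CPM in PKM2ΔMAC neutrophils and 391 CPM in PKM2FL/FL neutrophils.

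**Figure D4:**
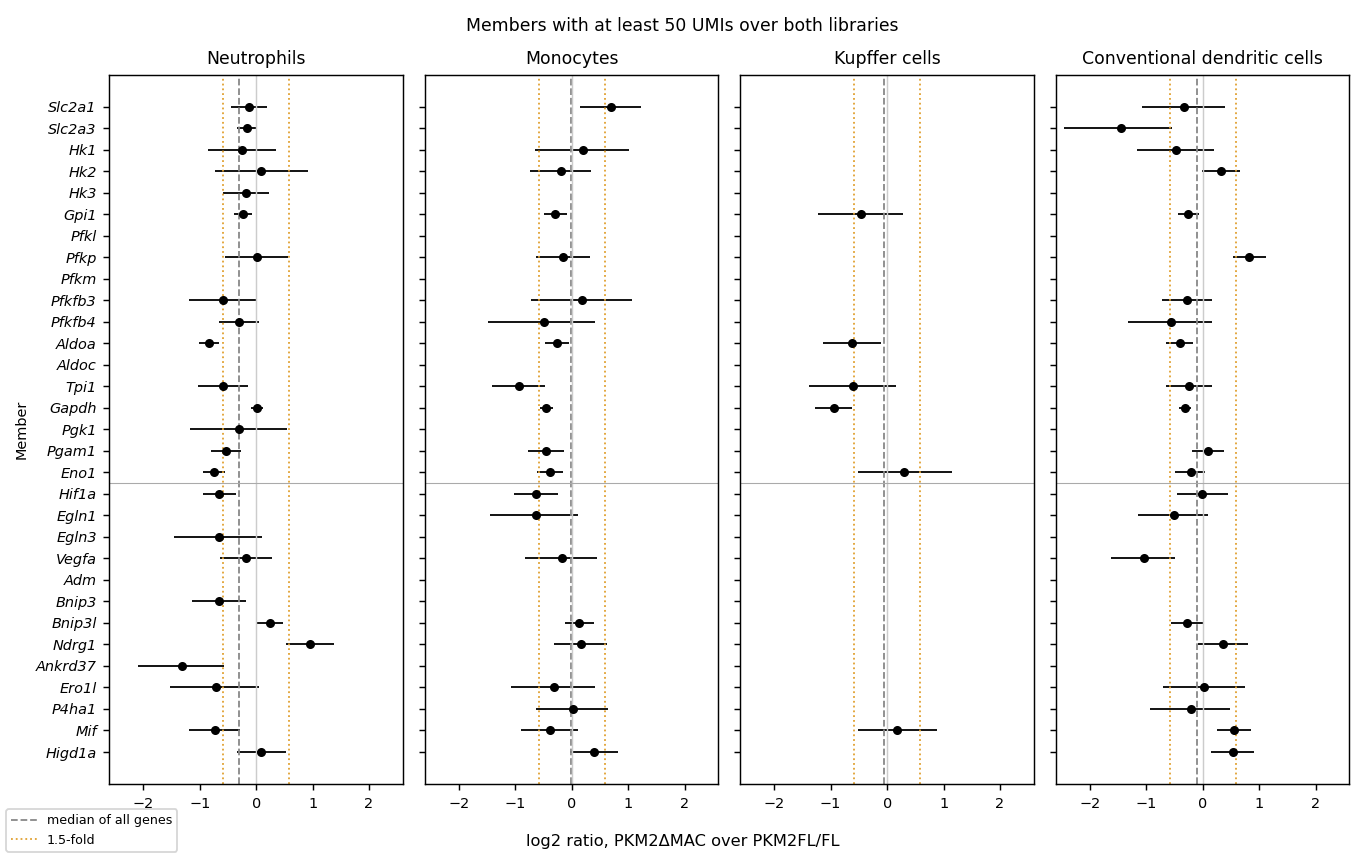
Log2 ratio of PKM2ΔMAC over PKM2FL/FL (horizontal axis) for members with at least 50 UMIs in neutrophils, monocytes, Kupffer cells and conventional dendritic cells, with 95% counting intervals, the median of all genes (dashed) and 1.5-fold lines (dotted). Ankrd37 at -1.32 and Ndrg1 at 0.95 are the ends of the range in neutrophils, and Gapdh at -0.95 is the lowest in Kupffer cells.

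Kupffer cells, 104 in PKM2ΔMAC and 105 in PKM2FL/FL, had 5 glycolysis members with enough UMIs, with a median of -0.60 on the log2 scale beside -0.06 for all 780 genes. The number lower was 3 of 6 members, where 12.2% of all genes were lower, and 0 were higher, where 8.59% were. Relative to the median gene 1 member, Gapdh, remained lower by 1.5-fold. Gapdh had 782 CPM in PKM2ΔMAC and 1507 CPM in PKM2FL/FL Kupffer cells, from 123 PKM2ΔMAC and 195 PKM2FL/FL UMIs (log2 ratio -0.95, ratio 0.519, 0.410 to 0.653). Aldoa had 381 CPM in PKM2ΔMAC and 588 CPM in PKM2FL/FL cells (log2 ratio -0.62, ratio 0.649, 0.455 to 0.923), and Tpi1 had 178 CPM in PKM2ΔMAC and 271 CPM in PKM2FL/FL cells from 28 PKM2ΔMAC and 35 PKM2FL/FL UMIs (log2 ratio -0.60, ratio 0.658, 0.385 to 1.11). Gpi1 pointed the same way at -0.46, and Eno1 was at 0.30, both with intervals that include equal levels. Erythroid genes moved with this result, with 6.35 CPM (5 of 6 markers at 0) in PKM2ΔMAC and 6834 CPM (0 of 6 at 0) in PKM2FL/FL Kupffer cells, and smooth muscle or fibroblast markers with 667 CPM in PKM2ΔMAC and 7.73 CPM in PKM2FL/FL cells. Without the 1 PKM2ΔMAC cell and 2 PKM2FL/FL cells that held 5 or more such UMIs, Gapdh stood at -0.94, Aldoa at -0.65 and Tpi1 at -0.54, which is under 1.5-fold. The median mitochondrial share was 0.162% in PKM2ΔMAC and 0.446% in PKM2FL/FL Kupffer cells. The 8 cycling markers had 25.4 CPM in PKM2ΔMAC and 155 CPM in PKM2FL/FL Kupffer cells. The part of these 2 measures was not tested.

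In monocytes, 108 PKM2ΔMAC and 198 PKM2FL/FL cells, 3 of 21 members were lower in the PKM2ΔMAC library, where 7.68% of all genes were, and 1 was higher, where 5.35% were. Tpi1 had 61.2 CPM in PKM2ΔMAC and 116 CPM in PKM2FL/FL cells (log2 ratio -0.93, ratio 0.526, 0.377 to 0.721), Hif1a had 93.1 CPM in PKM2ΔMAC and 144 CPM in PKM2FL/FL cells (log2 ratio -0.62, ratio 0.648, 0.494 to 0.843), and Egln1 was at -0.63 with an interval that includes equal levels (ratio 0.369 to 1.08). Slc2a1 was the higher member, with 67.4 CPM in PKM2ΔMAC and 41.6 CPM in PKM2FL/FL monocytes, from 55 PKM2ΔMAC and 69 PKM2FL/FL UMIs (log2 ratio 0.69, ratio 1.62, 1.11 to 2.34). Of the 12 glycolysis members compared in monocytes, 9 were below equal and 3, this transporter among them, above, for a median of -0.28 beside -0.01 for all genes. The lipid-associated macrophages, 39 in PKM2ΔMAC and 78 in PKM2FL/FL, were under the minimum for comparison, and had Gapdh at 1013 CPM in PKM2ΔMAC and 1590 CPM in PKM2FL/FL cells and Aldoa at 292 CPM in PKM2ΔMAC and 632 CPM in PKM2FL/FL cells.

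Conventional dendritic cells, 139 in PKM2ΔMAC and 195 in PKM2FL/FL, had 2 of 22 members lower, where 12.8% of all genes were, and 1 higher, where 5.46% were. Slc2a3 had 8.94 CPM in PKM2ΔMAC and 24.4 CPM in PKM2FL/FL cells, from 13 PKM2ΔMAC and 47 PKM2FL/FL UMIs (log2 ratio -1.45, ratio 0.367, 0.182 to 0.689). Vegfa had 26.1 CPM in PKM2ΔMAC and 53.9 CPM in PKM2FL/FL cells (log2 ratio -1.05, ratio 0.484, 0.325 to 0.709). Pfkp, by contrast, had 156 CPM in PKM2ΔMAC and 88.1 CPM in PKM2FL/FL cells (log2 ratio 0.82, ratio 1.77, 1.44 to 2.17). The 7 markers of mature dendritic cells moved with these values, at 889 CPM in PKM2ΔMAC and 1702 CPM in PKM2FL/FL cells, and their part in them was not tested. In plasmacytoid dendritic cells, 1 of 15 members was lower (7.88% of all genes) and 1 higher (7.33%). These were Eno1, with 34.0 CPM in PKM2ΔMAC and 56.4 CPM in PKM2FL/FL cells (log2 ratio -0.73), and Mif, with 156 CPM in PKM2ΔMAC and 77.6 CPM in PKM2FL/FL cells (log2 ratio 1.01, ratio 2.02, 1.57 to 2.61).

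Both glucose transporters were below equal in most PKM2ΔMAC classes with enough UMIs. Slc2a1 was lower in 10 of the 11 classes with enough UMIs, and by 1.5-fold or more in 6 of them. In T cells outside the CD4, CD8 and Cd163l1+ gates, called other T cells here, it had 17.3 CPM in PKM2ΔMAC and 35.4 CPM in PKM2FL/FL cells, from 48 PKM2ΔMAC and 188 PKM2FL/FL UMIs (log2 ratio -1.03, ratio 0.489, 0.348 to 0.674). In the 3 NK or innate lymphoid classes it had 28.2 to 29.4 CPM in PKM2ΔMAC and 47.5 to 52.7 CPM in PKM2FL/FL cells, at log2 ratios of -0.81 in NK cells with S1pr5 or Cma1, -0.75 in ILC1-like cells with Kit or Cited4 (-0.05 with cells thinned to 1000 UMIs) and -0.84 in the remaining NK or innate lymphoid cells. CD4 T cells (-0.80) and cycling cells (-0.71) completed the 6, and the CD4 interval includes equal levels (ratio 0.282 to 1.07). The 3 NK or innate lymphoid classes of a genotype come from the same 1 library, so their agreement does not count as repeats.

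Slc2a3 was lower in the PKM2ΔMAC library in 11 of 11 classes with enough UMIs, by as little as -0.03 in NK cells with S1pr5 or Cma1. Beyond 1.5-fold it was lower in CD4 T cells, with 31.3 CPM in PKM2ΔMAC and 55.0 CPM in PKM2FL/FL cells (log2 ratio -0.81, ratio 0.569, 0.339 to 0.912), in other T cells, with 37.2 CPM in PKM2ΔMAC and 59.0 CPM in PKM2FL/FL cells (log2 ratio -0.67, ratio 0.630, 0.499 to 0.790), and in the dendritic cells above. Both transporters were therefore lower together in CD4 and other T cells.

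Hk2 stood higher in PKM2ΔMAC cells in 9 of 10 classes. In other T cells it had 95.2 CPM in PKM2ΔMAC and 34.3 CPM in PKM2FL/FL cells, from 264 UMIs in 546 PKM2ΔMAC cells and 182 UMIs in 955 PKM2FL/FL cells (log2 ratio 1.47, ratio 2.78, 2.29 to 3.37). Its share of hexokinase UMIs there was 72.1% (67.2 to 76.7) in PKM2ΔMAC and 42.6% (37.9 to 47.5) in PKM2FL/FL cells. In cycling cells it had 37.0 CPM in PKM2ΔMAC and 17.47 CPM in PKM2FL/FL cells (log2 ratio 1.08, ratio 2.12, 1.44 to 3.15), where 5 cells held 39 of the 85 PKM2ΔMAC UMIs and 16 of the 41 PKM2FL/FL UMIs. In Cd163l1+ T cells, where Hk2 is highest, the levels were close, at 107 CPM in PKM2ΔMAC and 90.1 CPM in PKM2FL/FL cells (ratio 1.19, 0.753 to 1.89). Genes of interleukin-17-type T cells moved with Hk2, with Il23r at 46.5 CPM in PKM2ΔMAC and 12.4 CPM in PKM2FL/FL other T cells, Il17a at 49.8 CPM in PKM2ΔMAC and 13 CPM in PKM2FL/FL cells, and Blk at 88.4 CPM in PKM2ΔMAC and 37.9 CPM in PKM2FL/FL cells. In cycling cells Il17a had 115 CPM in PKM2ΔMAC and 0.426 CPM (1 UMI) in PKM2FL/FL cells, Blk had 19.6 CPM in PKM2ΔMAC and 3.84 CPM in PKM2FL/FL cells, and Il23r had 2.17 CPM in PKM2ΔMAC and 1.70 CPM in PKM2FL/FL cells. Without the cells that held a UMI of Il23r, Il17a or Blk, which were 183 PKM2ΔMAC and 143 PKM2FL/FL other T cells, the log2 ratio of Hk2 was 1.80 in other T cells and 1.39 in cycling cells. Cells of this type with no UMI of these genes stay in those values. Il4 went the other way in other T cells, at 9.02 CPM in PKM2ΔMAC and 33.3 CPM in PKM2FL/FL cells. So did the 7 NK or innate lymphoid markers, at 905 CPM in PKM2ΔMAC and 1325 CPM in PKM2FL/FL other T cells. Their part in the values of other T cells was not tested. Cycling cells pool dividing cells of several immune lineages, whose markers differed in both directions. The 7 plasma cell markers had 2293 CPM in PKM2ΔMAC and 1332 CPM in PKM2FL/FL cycling cells. The 9 monocyte markers had 509 CPM in PKM2ΔMAC and 312 CPM in PKM2FL/FL cells. The 7 NK or innate lymphoid markers had 1778 CPM in PKM2ΔMAC and 2146 CPM in PKM2FL/FL cells. Their part in the values of cycling cells was not tested.

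**Figure D5:**
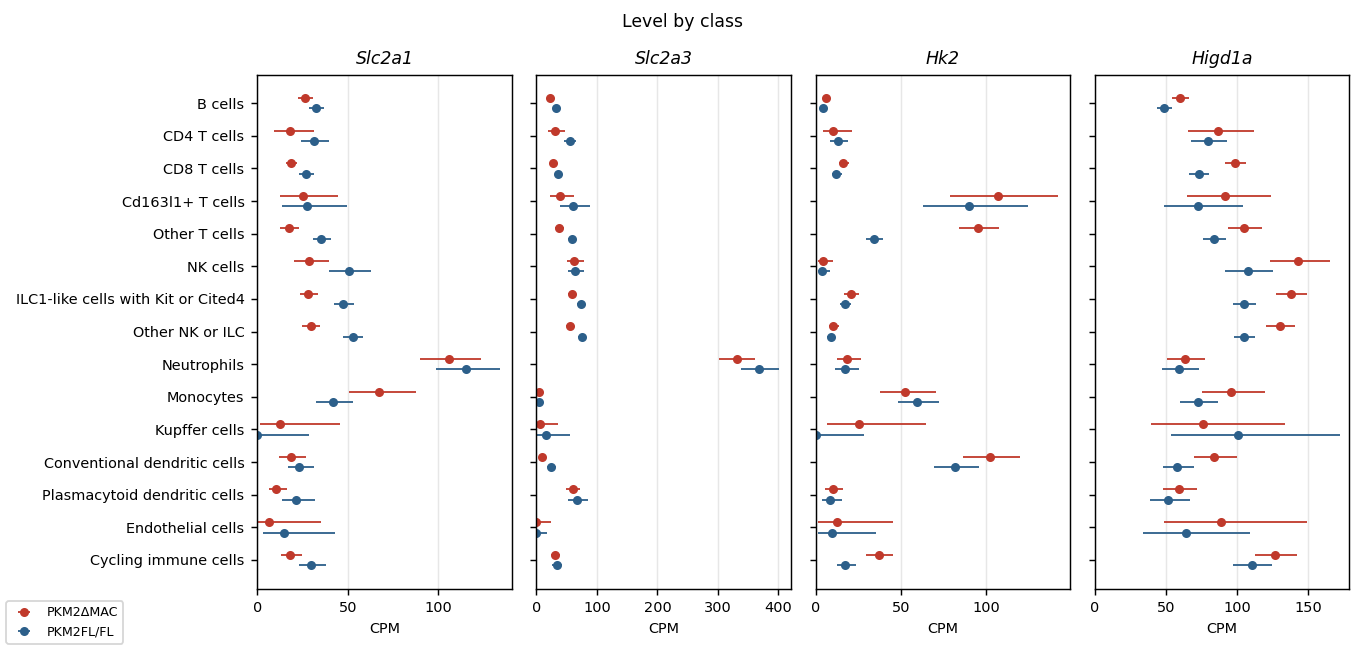
Level (CPM, horizontal axis) of Slc2a1, Slc2a3, Hk2 and Higd1a in the 15 compared classes, PKM2ΔMAC in red above PKM2FL/FL in blue, with 95% counting intervals. Slc2a3 stands out in neutrophils at 331 CPM in PKM2ΔMAC and 369 CPM in PKM2FL/FL cells, Hk2 differs in other T cells at 95.2 CPM in PKM2ΔMAC and 34.3 CPM in PKM2FL/FL cells, and Higd1a is higher in PKM2ΔMAC cells in 13 of the 13 classes with enough UMIs.

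In other T cells the counts were 2 of 25 members lower (9.92% of all genes) and 2 higher (4.15%), the second higher member being Egln3, with 24.2 CPM in PKM2ΔMAC and 14.1 CPM in PKM2FL/FL cells (log2 ratio 0.77, ratio 1.71, 1.21 to 2.41). In CD4 T cells 2 of 19 were lower (12% of all genes) and 2 higher (4.6%). P4ha1 had 62.6 CPM in PKM2ΔMAC and 33.1 CPM in PKM2FL/FL CD4 T cells (log2 ratio 0.92, ratio 1.89, 1.26 to 2.82), and Pfkl was at 0.66 from 17 PKM2ΔMAC and 33 PKM2FL/FL UMIs. Il17a was higher too, at 271 CPM in PKM2ΔMAC and 13.1 CPM in PKM2FL/FL cells. Il4 went the other way, at 1.49 CPM in PKM2ΔMAC and 36.5 CPM in PKM2FL/FL cells. So did the 7 NK or innate lymphoid markers, at 422 CPM in PKM2ΔMAC and 913 CPM in PKM2FL/FL CD4 T cells. Without the 11 PKM2ΔMAC and 15 PKM2FL/FL CD4 T cells that held a UMI of Il23r, Il17a or Blk, P4ha1 stood at 0.99, Pfkl at 0.85, Slc2a1 at -0.66 and Slc2a3 at -0.82. The part of Il4 and of the NK or innate lymphoid markers was not tested. In CD8 T cells 2 of 24 were lower (11% of all genes), namely Vegfa at -0.70 (44 PKM2ΔMAC and 56 PKM2FL/FL UMIs, and -0.09 as the mean of the cells' own CPM) and Pfkfb3 at -0.65 (57 PKM2ΔMAC and 70 PKM2FL/FL UMIs), and 1 was higher (2.35%), namely Ankrd37 at 0.63 (93 PKM2ΔMAC and 47 PKM2FL/FL UMIs). Cd163l1+ T cells had 0 of 14 members lower (7.53% of all genes) and 0 higher (6.81%), with a range from -0.52 for Eno1 to 0.56 for Hif1a.

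B cells had 3 of 27 members lower (5.84% of all genes) and 0 higher (2.76%). Vegfa had 4.14 CPM in PKM2ΔMAC and 8.57 CPM in PKM2FL/FL cells (log2 ratio -1.05), Ndrg1 had 7.51 CPM in PKM2ΔMAC and 12.6 CPM in PKM2FL/FL cells (-0.74), and Egln1 had 20.1 CPM in PKM2ΔMAC and 32.3 CPM in PKM2FL/FL B cells (log2 ratio -0.69, ratio 0.622, 0.497 to 0.774). These 3 are of the hypoxia list, but the list as a whole was not lower in B cells. Of its 12 members compared, 6 were above equal and 6 below, with a median of -0.04 beside -0.07 for all genes. Its sum was higher in PKM2ΔMAC B cells (ratio 1.14, 1.09 to 1.20). NK cells with S1pr5 or Cma1 had 1 of 19 lower (7.21% of all genes), Slc2a1, and 0 higher (3.05%). ILC1-like cells had 1 of 27 lower (5.94%), Slc2a1, and 2 higher (2.6%), which were Bnip3 with 10.7 CPM in PKM2ΔMAC and 5.98 CPM in PKM2FL/FL cells (log2 ratio 0.84, ratio 1.79, 1.14 to 2.80) and Egln3 at 0.63 from 45 PKM2ΔMAC and 43 PKM2FL/FL UMIs. The remaining NK or innate lymphoid cells had 2 of 26 lower (6.17%), Slc2a1 and Hk3 (-0.67, 17 PKM2ΔMAC and 41 PKM2FL/FL UMIs), and 0 higher (2.93%). Cycling cells had 1 of 23 lower (5.94%) and 1 higher (3.98%), both named above. Endothelial cells had 1 of 6 lower (10.6%), Pgam1 at -0.59 from 17 PKM2ΔMAC and 33 PKM2FL/FL UMIs, and 0 higher (10.6%). Several measures moved with it in this class, namely the median depth at 828.5 UMIs per cell in PKM2ΔMAC and 1718 in PKM2FL/FL cells, the median mitochondrial share at 0.567% in PKM2ΔMAC and 2.74% in PKM2FL/FL cells, the 6 hepatocyte markers at 63.3 CPM in PKM2ΔMAC and 241 CPM in PKM2FL/FL cells (1 marker at 0 in each library), and the 6 erythroid markers at 101 CPM in PKM2ΔMAC (1 at 0) and 260.1 CPM in PKM2FL/FL cells (2 at 0). Their part in it was not tested.

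Several members lay on one side of equal in most classes, in most of them by less than 1.5-fold. Higd1a was higher in PKM2ΔMAC cells in 13 of 13 classes, by 0.09 to 0.53 on the log2 scale, for example 138 CPM in PKM2ΔMAC and 105 CPM in PKM2FL/FL ILC1-like cells (ratio 1.31, 1.18 to 1.47). Bnip3l was higher in 12 of 14 classes, with 179 CPM in PKM2ΔMAC and 146 CPM in PKM2FL/FL B cells (ratio 1.23, 1.13 to 1.33). Mif was higher in 10 of 14, with 397 CPM in PKM2ΔMAC and 302 CPM in PKM2FL/FL CD8 T cells (ratio 1.32, 1.24 to 1.40), and neutrophils and monocytes were among the 4 lower ones. The other direction held for Gpi1 and Aldoa, each lower in 14 of 15 classes, for Hif1a, lower in 12 of 13, for Egln1, lower in 11 of 12, and for Gapdh, lower in 12 of 15. These counts of classes, like those above for Slc2a1, Slc2a3 and Hk2, give only the side of equal. All classes of a genotype share 1 library, and how many of all genes lay on the same side in as many classes was not counted. Pgk1 was higher in 6 of 8 classes, Hk1 in 5 of 11 and Pgam1 in 6 of 14.

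Genes of the neighbouring pathways were counted from the same minimum. Of 7 pentose phosphate genes, which branch off the hexose phosphates, at most 1 per class was 1.5-fold lower and 0 were higher in any class. By class, 5.84% to 25.8% of all genes were lower and 2.35% to 10.6% higher. With at most 7 genes per class, these small counts do not set the pathway apart from other genes. Pkm was below equal in PKM2ΔMAC cells in 15 of 15 classes and lower by 1.5-fold or more in neutrophils, monocytes, Kupffer cells and endothelial cells. Among the 20 further hypoxia genes, Hilpda, which coats lipid droplets, was the most often apart. It had 115 CPM in PKM2ΔMAC and 47.2 CPM in PKM2FL/FL conventional dendritic cells (log2 ratio 1.28), 44.5 CPM in PKM2ΔMAC and 18.5 CPM in PKM2FL/FL plasmacytoid dendritic cells (log2 ratio 1.27), and 165 CPM in PKM2ΔMAC and 82.7 CPM in PKM2FL/FL other T cells (ratio 1.998, 1.75 to 2.28). It was lower in CD4 T cells, with 34.3 CPM in PKM2ΔMAC and 91.5 CPM in PKM2FL/FL cells (log2 ratio -1.42), and in neutrophils (-0.61). Hilpda, a HIF target, therefore differed in opposite directions between classes, as Slc2a1, Ndrg1, Bnip3, Ankrd37 and Mif did.

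Neutrophils with Irg1 or Slc7a11, genes of inflammatory activation, were also set against the neutrophils without them in each library. Over 19 members the median log2 ratio, with over without, was -0.09 in the PKM2ΔMAC library (all genes -0.04), and over 20 members it was -0.07 in the PKM2FL/FL library (all genes -0.03). In the PKM2ΔMAC library 2 members were higher (11.4% of all genes) and 2 lower (8.62%), and in the PKM2FL/FL library 3 were higher (16.6%) and 1 lower (14.4%). Members with 0 UMIs in either set of neutrophils were left out here. The values for all genes keep such genes at a limit of 3 counts, so the 2 are not fully alike. The 2 lower members of the PKM2ΔMAC library were Pfkfb4, at -0.80 in PKM2ΔMAC and -0.47 in PKM2FL/FL neutrophils, and Bnip3, at -0.74 in PKM2ΔMAC and -0.46 in PKM2FL/FL neutrophils. Of these 4 values only that of Pfkfb4 in PKM2ΔMAC neutrophils had an interval without equal levels (ratio 0.375 to 0.904). Only 92 PKM2ΔMAC and 49 PKM2FL/FL neutrophils lacked both genes, and most members therefore rest on few UMIs there.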

How the data were processed

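The deposited values are raw UMI counts of each gene in each barcode, and per the file headers the authors' software was Cell Ranger 6.0.0. The submitters' processing notes name the mm10 build and also Seurat 4.3.0, with no role stated. Barcodes had at least 502 UMIs. Cells with fewer than 300 genes or 20% or more mitochondrial UMIs were removed (72 PKM2ΔMAC and 64 PKM2FL/FL), as were the 330 and 461 doublets that Scrublet called (scanpy 1.11.5, with 0.08 as the expected rate). A cell took the marker panel with the largest share of markers detected, from at least 3 markers (2 for Kupffer cells), and stayed ungated where another lineage reached more than 67% of that share. This left 560 and 622 cells ungated. The members and lists were chosen with earlier results of these data known, and the panel splits and the 67% rule were set after the cells had been viewed.

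UMIs were summed per class and library and divided by the class total. Ratios are PKM2ΔMAC over PKM2FL/FL, with exact conditional 95% intervals, and CPM and shares carry exact Poisson and binomial intervals. They cover counting error only. A count of 0 was given a limit of 3 counts, except for members in the split of neutrophils, which were left out at 0. Members with at least 50 UMIs over both libraries were compared, those at least 1.5-fold apart are named, and medians need at least 3 members. No p-value was computed, since cells are not replicates. The calculations were checked on simulated data. Alternatives were other cell and count filters, no doublet removal, 1 more marker in the gate, thinning to 1000 UMIs per cell, another total, the mean of the cells' own CPM, centring on all genes, other fold limits and, chosen after seeing the data, leaving out cells with Il23r, Il17a or Blk, leaving out Kupffer cells with erythroid or smooth muscle UMIs, and thinning with the members kept. Intervals came from scipy 1.17.1, sums from numpy 2.4.6 and pandas 2.3.3, and plots from matplotlib 3.10.9, all under Python 3.11.15.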

Additional observations from a re-analysis of the deposited data

Results flagged for a closer look

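Several members lay at least 1.5-fold apart in opposite directions in different classes, each from 1 library per genotype, and none of these differences between classes was tested. Slc2a1 was higher in PKM2ΔMAC monocytes, with a log2 ratio of 0.69. It was lower in other T cells (-1.03), NK cells with S1pr5 or Cma1 (-0.81), ILC1-like cells (-0.75), the remaining NK or innate lymphoid cells (-0.84) and cycling cells (-0.71). Bnip3 was higher in PKM2ΔMAC ILC1-like cells (0.84) and lower in neutrophils (-0.65). Ndrg1 was higher in neutrophils (0.95) and lower in B cells (-0.74). Ankrd37 was higher in CD8 T cells (0.63) and lower in neutrophils (-1.32). Mif was higher in plasmacytoid dendritic cells (1.01) and lower in neutrophils (-0.73). The 14 log2 ratios listed here all have counting intervals without 0, and values with intervals that include 0 were left out. Slc2a1 in CD4 T cells and Egln3 in neutrophils, both lower, are therefore missing, so the intervals add no support. All neutrophil values stand beside a median of -0.30 over all genes.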

How the results depend on the processing

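Of 343 alternatives to the 30 list medians, 3 moved beyond the counting spread or changed direction. In CD8 T cells the hypoxia response median was 0.40 with at least 1 UMI in each library. In neutrophils it was 0.20, the other direction, with cells thinned to 1000 UMIs, where 7 members had enough UMIs, and -0.51 with the same 10 members kept. In conventional dendritic cells it was 0.70 with thinning and the members kept. The cause was not tested. Of 373 alternatives to the 45 named log2 ratios, 1 reversed, Tpi1 in neutrophils at 0.12 after thinning, and 10 moved. Among these were, after thinning, Slc2a1 in ILC1-like cells at -0.05, Slc2a3 in CD4 T cells at -2.49, Hk2 in cycling cells at 2.91 and Pfkp in conventional dendritic cells at 1.74, Vegfa in CD8 T cells at -0.09 as the mean of the cells' own CPM, and, relative to all genes, Aldoa at -0.53, Eno1 at -0.45 and Hif1a at -0.35 in neutrophils. A smaller fold limit moved 25 of 30 counts of members apart by over 1.5 times, and a limit of 2-fold moved 20 of 30. Depth limits Kupffer and endothelial cells most, with 6 comparable members each. With 1 library per genotype no replicate could be left out. No paired analysis was possible because each genotype had 1 library.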
